A study of Homo sapiens with 18 samples.

Results

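The response to combined depletion of KDM1A and KDM7A was compared between 2 human prostate cancer lines, LNCaP, whose growth depends on androgen, and C4-2, which was derived from LNCaP and grows without it. The comparison used 12 of the 18 RNA-seq libraries of the series, all from cells given the synthetic androgen R1881 (1 nM) for 72 h in medium with charcoal-stripped serum. In each line, 3 libraries came from cells transfected with a non-targeting control siRNA (siScr) and 3 from cells transfected with siRNA pools against both demethylases (dual knockdown), at 10 nM. Each line is 1 established culture, no library had only 1 of the demethylases depleted, and the knockdown was transient and partial. The members were all genes, and the quantity was the interaction of line and siRNA, which is the log2 fold change (log2FC) under dual knockdown in C4-2 minus that in LNCaP. A positive difference therefore marks a gene whose log2FC was more positive in C4-2, here called higher, and a negative difference one called lower. Of 60675 genes listed, 41144 had at least 1 count in these libraries and 17589 had enough counts to be tested.

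KDM1A (also called LSD1) and KDM7A are enzymes that take methyl groups off lysines of histone H3, a chemical change by which chromatin at a gene becomes more or less open to transcription. KDM1A works mainly inside repressor complexes with CoREST and histone deacetylases. KDM7A belongs to a small family of demethylases with a PHD finger and removes marks linked to gene silencing. The interaction asks which genes respond to their depletion in one line differently from the other.

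Expression is given as counts per 1000000 counted read pairs (CPM), with library sizes scaled by edgeR's TMM factors and the values of replicates 1, 2 and 3 in that order. The 12 libraries held 14350626 to 19732350 counts. Adjusted p means the Benjamini-Hochberg value of edgeR's 2-sided quasi-likelihood F-test over all 17589 genes. A gene was called when the adjusted p was under 0.05 and the log2 difference was at least 1 in size. Between replicates, chi-square per gene was 2.41 to 6.57 in all but the pairs with replicate 1 of the C4-2 dual knockdown, where it was 13.5 and 15.3, so that library stood apart. Markers of the prostate luminal epithelium summed to between 11000 and 12400 CPM in LNCaP and between 4810 and 5270 CPM in C4-2, while the 8 basal markers together gave 4.7 to 5.77 CPM in LNCaP. In C4-2, the basal sum was 3.2 to 4.09 CPM with siScr and 5.58 to 7.55 CPM under dual knockdown, without overlap. In C4-2, the 9 fibroblast markers summed to 18.3 to 25.5 CPM with siScr and 28.5 to 36.6 CPM under dual knockdown, against 7.94 to 12.3 CPM and 10.5 to 13.6 CPM in LNCaP. Only 3 fibroblast markers had enough counts to be tested, and 0 of their differences passed by adjusted p. The 9 blood cell markers, 1 of them at 0 in all 12 libraries, summed to 1.05 to 1.61 CPM with siScr and 1.72 to 2.41 CPM under dual knockdown in C4-2 and to at most 0.729 CPM in LNCaP, the 7 endothelial markers to at most 21.2 CPM, and the part of these markers in the results was not tested.

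Both targets fell in both lines and fell further in C4-2. KDM1A (ENSG00000004487, chr1:23019448-23083689) was at 104 ± 4.14 CPM (SD, n = 3) in LNCaP siScr cells and 49.98 ± 2.52 CPM (SD, n = 3) under dual knockdown, and at 138 ± 3.18 CPM and 15.9 ± 2.92 CPM in C4-2. Its log2FC was −1.05 (SE 0.09) in LNCaP and −3.11 (SE 0.10) in C4-2, a difference of −2.06 (SE 0.13, adjusted p = 2.78e-09). In each line, every dual knockdown library lay below every siScr library. KDM7A (ENSG00000006459, chr7:140084746-140177035) was at 53.1, 61.9 and 56.9 CPM and 27.03, 30.3 and 32.4 CPM in LNCaP, and at 109, 114 and 128 CPM and 17.4, 23.1 and 21.1 CPM in C4-2. The log2FC of KDM7A was −0.93 (SE 0.10) and −2.51 (SE 0.10), respectively, and the difference was −1.57 (SE 0.14, adjusted p = 2.62e-07). The 2 groups of each line did not overlap for KDM7A either. With siScr, C4-2 held more KDM7A transcript than LNCaP, and after knockdown it held less. Because knockdown depth differs between the lines, an effect of line and an effect of depth cannot be told apart in any gene that follows.

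Of the 17589 genes tested, 404 (2.3%) responded differently in the lines. They comprised 250 genes (1.42%) with a higher and 154 (0.876%) with a lower response in C4-2. By adjusted p alone, the counts were 1277 (7.26%) higher and 954 (5.42%) lower. Without replicate 1 of the C4-2 dual knockdown, 627 genes were called, 334 higher and 293 lower. With any other library left out the count was at least 318. List counts given below without replicate 1 of the C4-2 dual knockdown come from that fit, which called more genes of all kinds. The share of all genes that passed by adjusted p in that fit is not given here, so those list counts have no reference share. Within the lines, dual knockdown passed both thresholds for 504 genes up (2.87%) and 276 down (1.57%) in C4-2, against 29 up (0.165%) and 25 down (0.142%) in LNCaP. By adjusted p alone, those counts were 2717 (15.4%) and 2348 (13.3%) in C4-2, and 1008 (5.73%) and 611 (3.47%) in LNCaP. The LNCaP count by both thresholds depended on single libraries, with 5 to 91 genes when 1 was left out.

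**Figure D1:**
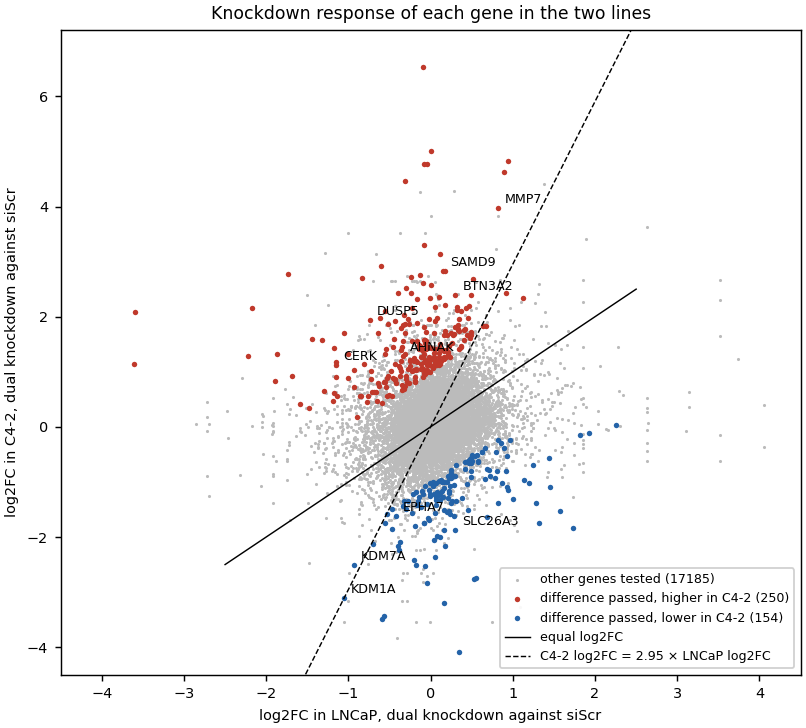
The log2FC under dual knockdown in C4-2 (vertical axis) is plotted against that in LNCaP (horizontal axis) for each gene tested, with the 250 genes called higher in red, the 154 called lower in blue and the others in grey. The solid line marks equal log2FC and the dashed line a C4-2 log2FC of 2.95 times that of LNCaP, the ratio for KDM1A; called genes lie mostly above and below the middle of the cloud, and 10 genes fall outside the axes.

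The typical called gene moved in C4-2 and showed little net change in LNCaP. Among the 250 higher genes, the median log2FC was 1.33 in C4-2 and −0.12 in LNCaP. For the 154 lower genes, the medians were −1.20 in C4-2 and 0.22 in LNCaP. Taking adjusted p under 0.05 within each line, 330 of the 404 genes passed in C4-2 alone, 20 in LNCaP alone, 32 in both and 22 in neither. In 350 genes the log2FC was larger in size in C4-2, and in 54 it was larger in LNCaP. The C4-2 dual knockdown and siScr libraries did not overlap in 377 of the 404 genes, beside 39.6% of all genes tested, and the LNCaP libraries did not overlap in 153, beside 34.0% of all genes. The 404 genes were called from these same libraries, so the lack of overlap is partly set by that choice and is not separate evidence. Many of these genes were expressed at a low level, and 240 of the 404 had a mean of at least 1 CPM with siScr in both lines. With siScr, 101 of the 250 higher genes were under 1 CPM in C4-2 and 45 in LNCaP.

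The called genes were mostly protein-coding (298 of 13410 tested, 2.22%). Among other classes, 34 of 948 lincRNA genes (3.59%) and 37 of 1254 antisense genes (2.95%) were called. Protein-coding genes were more often on the higher side, with 209 higher and 89 lower, whereas lincRNA genes gave 12 higher and 22 lower and antisense genes 13 higher and 24 lower. Reads were counted without regard to strand, so an antisense gene and its partner cannot be told apart where they overlap. The solute carriers, which move ions and metabolites across membranes, had 9 of 254 members called (3.54%), and zinc finger ZNF genes had 3 of 460 (0.652%). These shares are read against 2.3% of all genes.

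Letters that match the core of an interferon response element are shown first, in front of IFIT1, IFIT3 and SAMD9, which were called higher. Interferons are antiviral signals that switch on a set of genes through transcription factors of the STAT and IRF families, which bind short GAAA repeats. In the 250 bases before the start site of RefSeq (GRCh38.p14), using the first start listed for a gene, the letters GAAA, then any 2 letters, then GAAA were searched on both strands with overlaps allowed. They occurred in 839 of 27305 promoters (3.07%), in 273 of 11882 tested genes with a promoter in the table (2.3%), in 9 of 175 genes called higher (5.14%) and in 1 of 78 called lower (1.28%). Of the interferon-stimulated genes on the list described next, 14 of 23 with a promoter in the table (60.9%) held them. A match describes the letters only. The stretches below, written 5′ to 3′ on the strand of the gene with the matches in capitals, lie at chr10:89392477-89392537 (plus strand), chr10:89327811-89327892 (plus strand) and chr7:93118098-93118145 (minus strand), and end 85, 104 and 118 bases before the start site.
IFIT1: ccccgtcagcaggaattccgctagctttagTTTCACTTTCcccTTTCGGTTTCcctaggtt
IFIT3: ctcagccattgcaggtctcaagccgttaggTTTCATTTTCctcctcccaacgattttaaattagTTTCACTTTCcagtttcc
SAMD9: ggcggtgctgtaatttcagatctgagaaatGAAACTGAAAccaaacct

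Interferon-stimulated genes and sensors of double-stranded RNA showed a higher response in C4-2. Of 30 members tested, 10 passed by adjusted p in the higher direction and 0 in the lower, beside 7.26% and 5.42% of all genes, and the median difference was 0.44 beside −0.0042 over all genes. Within the lines, 16 passed upward and 2 downward in C4-2, beside 15.4% and 13.3% of all genes, and 1 passed upward and 0 downward in LNCaP, beside 5.73% and 3.47%. Without replicate 1 of the C4-2 dual knockdown, 12 passed higher and 2 lower. IFIT1 (ENSG00000185745, chr10:89392546-89406486) encodes an antiviral protein that binds foreign RNA ends. In LNCaP, IFIT1 was measured at 2.59, 2.79 and 2.71 CPM with siScr and at 3.22, 2.89 and 2.42 CPM under dual knockdown. In C4-2, the values were 0.48, 0.708 and 0.237 CPM and 2.05, 1.96 and 1.71 CPM. This gave log2FC values of 0.07 (SE 0.22) and 1.98 (SE 0.31) and a difference of 1.90 (SE 0.39, adjusted p = 0.00242). The C4-2 groups were fully apart and the LNCaP groups overlapped. IFIT3 (ENSG00000119917, chr10:89327894-89340971) lies next to it and encodes a binding partner of the same family. IFIT3 gave 2.11, 2.65 and 2.098 CPM in the LNCaP siScr libraries and 2.23, 2.27 and 2.06 CPM under dual knockdown. The C4-2 libraries gave 0.64, 0.708 and 0.653 CPM and 2.41, 1.91 and 2.31 CPM. With log2FC values of −0.06 (SE 0.22) and 1.72 (SE 0.26), IFIT3 differed between the lines by 1.77 (SE 0.34, adjusted p = 0.00152). As for IFIT1, C4-2 went from below 1 CPM to values close to those of LNCaP, where the groups overlapped. SAMD9, an antiviral factor and growth suppressor that was not on the list, had one of the 10 largest positive differences. For SAMD9, siScr and dual knockdown libraries of LNCaP held 8.66, 9.696 and 8.17 CPM and 9.83, 10.4 and 9.12 CPM. Those of C4-2 held 0.8, 0.599 and 1.13 CPM and 4.67, 5.94 and 7.43 CPM. Between the lines, the log2FC differed by 2.68 (SE 0.28, adjusted p = 2.49e-06), from 0.15 (SE 0.15) in LNCaP to 2.83 (SE 0.23) in C4-2. Every C4-2 dual knockdown library was above every siScr library, and LNCaP libraries overlapped. Other called members were PARP14, a transferase of ADP-ribose, with a difference of 1.11 (SE 0.17, adjusted p = 0.000185), and IFI35 at 1.41 (SE 0.25, adjusted p = 0.000769). TLR3, the endosomal receptor for double-stranded RNA, was called at 1.22 (SE 0.33, adjusted p = 0.0187) and lost the call without LNCaP siScr replicate 2 (difference 0.95, adjusted p = 0.0731) or C4-2 siScr replicate 3 (adjusted p = 0.0592).

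The BTN3A and HLA-DM genes were each called together as neighbours and are named here after their values were seen. The 3 BTN3A genes, butyrophilins through which gamma-delta T cells sense altered cells, lie together at chr6:26365159-26453415, and all were called higher. LNCaP libraries held BTN3A2 at 15.8, 17.6 and 19.8 CPM with siScr and 23.1, 21.9 and 20.5 CPM after dual knockdown. C4-2 libraries held it at 3.63, 3.703 and 3.68 CPM and 19.3, 19.8 and 18.6 CPM. Its log2FC was 0.30 (SE 0.10) in LNCaP and 2.39 (SE 0.12) in C4-2, a difference of 2.09 (SE 0.16, adjusted p = 2.59e-08). In LNCaP the knockdown libraries were also above the siScr libraries, by a small margin. The differences of BTN3A3 and BTN3A1 were 2.05 (SE 0.20, adjusted p = 6.08e-07) and 1.40 (SE 0.20, adjusted p = 8.7e-05). BTN3A genes are close in sequence, and reads that could come from more than 1 copy make their separate values uncertain. HLA-DMB and HLA-DMA, at chr6:32934629-32969094, encode the chaperone that loads peptides onto MHC class II molecules. With siScr, HLA-DMB stood at 15.2, 17.4 and 15.7 CPM in LNCaP and at 0.907, 1.198 and 0.712 CPM in C4-2. Under dual knockdown it stood at 19.2, 17.5 and 15.05 CPM in LNCaP and at 6.67, 3.82 and 4.02 CPM in C4-2. The log2FC of HLA-DMB was 0.10 (SE 0.15) and 2.36 (SE 0.25), respectively, and the difference was 2.26 (SE 0.30, adjusted p = 3.05e-05). The level in C4-2 stayed under that of LNCaP even after it rose. HLA-DMA differed by 1.11 (SE 0.17, adjusted p = 0.000202), and by 0.98 without replicate 1 of the C4-2 dual knockdown, under the threshold. In the MHC class I list, 3 of 17 members passed higher and 3 lower (7.26% and 5.42% of all genes), so the list had no single direction. ERAP2, an aminopeptidase that trims peptides for class I molecules, was called at 1.45 (SE 0.33, adjusted p = 0.0054).

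Laminins, integrins and related adhesion genes, which anchor epithelial cells to the basement membrane, also had higher responses in C4-2. Of 21 tested, 10 passed higher and 0 lower by adjusted p (7.26% and 5.42% of all genes), with a median difference of 0.36. The counts were 10 and 0 as well without replicate 1 of the C4-2 dual knockdown. The summed basal markers of C4-2 also went up, as given above, and their part in these values was not tested. Of the 8 basal markers, 4 had enough counts to be tested, 2 of them with a positive difference. The 1 difference that passed was that of KRT15, at 2.35 (adjusted p = 0.00141). ITGA1 (ENSG00000213949, chr5:52787896-52959210) encodes the alpha-1 integrin, which pairs with beta-1 integrin to bind collagen. Values of ITGA1 were 2.32, 2.51 and 1.88 CPM (siScr) and 1.73, 1.91 and 1.65 CPM (dual knockdown) in LNCaP. Their C4-2 counterparts were 5.28, 5.45 and 6.29 CPM and 15.5, 17.1 and 17.7 CPM. This gave log2FC values of −0.33 (SE 0.20) and 1.57 (SE 0.13) and a difference of 1.90 (SE 0.24, adjusted p = 1.61e-05). Its C4-2 groups were apart and its LNCaP groups overlapped. ITGB1 (ENSG00000150093, chr10:32900319-33005792) encodes that beta-1 partner of many integrins. In LNCaP, ITGB1 was measured at 377, 402 and 406 CPM with siScr and at 415, 410.1 and 424 CPM under dual knockdown. In C4-2, the values were 140.4, 152 and 149 CPM and 271, 311 and 329.9 CPM. With log2FC values of 0.08 (SE 0.07) and 1.05 (SE 0.07), ITGB1 differed between the lines by 0.97 (SE 0.10, adjusted p = 1.42e-06). The difference passed by adjusted p but was just under the size threshold. In LNCaP the dual knockdown libraries were all above the siScr libraries, by less than in C4-2. DST, a linker between integrin plaques and the cytoskeleton, was called at 1.10 (SE 0.14, adjusted p = 3.01e-05), and the laminin chain LAMA3 differed by 0.69 (SE 0.10, adjusted p = 0.000167). LAMB3, another laminin chain, was called at 1.17 (SE 0.31, adjusted p = 0.0161) and lost the call without C4-2 siScr replicate 1 (adjusted p = 0.0501) or C4-2 dual knockdown replicate 2 (adjusted p = 0.0635).

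**Figure D2:**
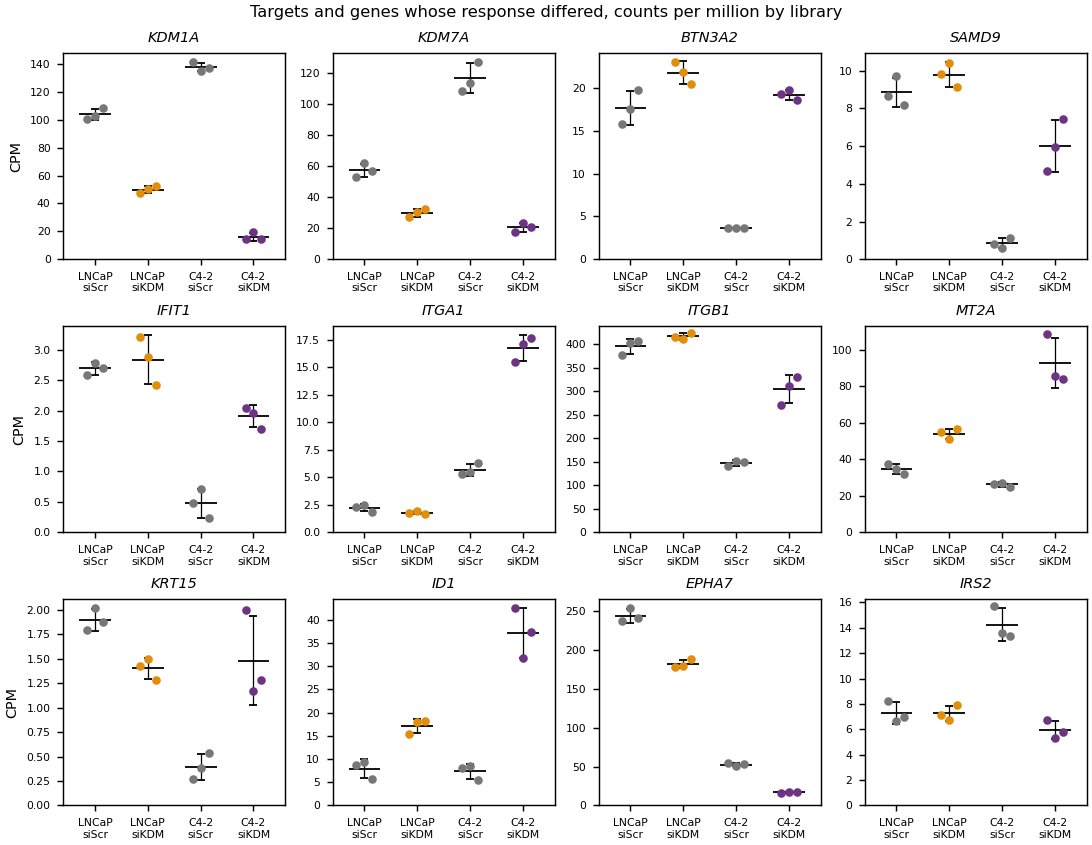
CPM in each of the 12 libraries is shown for KDM1A, KDM7A and 10 genes whose response differed, with 1 panel per gene, points for libraries, and bars for the mean and SD of 3 (siKDM marks dual knockdown). In C4-2, IFIT1, BTN3A2, SAMD9 and ITGB1 rose toward the level seen in LNCaP, while MT2A and ID1 rose above it and EPHA7 and IRS2 fell.

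Genes of mitosis had small positive differences. All 30 members tested had a positive difference, with a median of 0.37, and 13 passed higher and 0 lower (7.26% and 5.42% of all genes). None reached the size threshold. In C4-2, 26 of the 30 passed upward, beside 15.4% of all genes, and in LNCaP 2 did, beside 5.73%. CENPF (ENSG00000117724, chr1:214603195-214664588) encodes a kinetochore protein that helps attach chromosomes to the spindle. CENPF gave 215, 219.9 and 246 CPM in the LNCaP siScr libraries and 189, 195 and 209 CPM under dual knockdown. The C4-2 libraries gave 188, 217 and 213 CPM and 221, 313 and 317 CPM. Between the lines, the log2FC differed by 0.66 (SE 0.14, adjusted p = 0.00374), from −0.20 (SE 0.10) in LNCaP to 0.46 (SE 0.10) in C4-2. In LNCaP every knockdown library was below every siScr library, and in C4-2 every one was above. Replicate 1 of the C4-2 dual knockdown was closest to siScr for CENPF, and without it 23 of the 30 mitosis genes passed higher. CENPE, a kinetochore motor, and ASPM, a spindle pole protein, differed by 0.68 (SE 0.15, adjusted p = 0.00397) and 0.70 (SE 0.15, adjusted p = 0.00428). Among 30 genes of DNA replication, 7 passed higher and 1 lower (7.26% and 5.42% of all genes), with TK1, thymidine kinase, at 0.74 (SE 0.12, adjusted p = 0.000466) and CDT1, which licenses replication origins, at −0.83 (SE 0.16, adjusted p = 0.00156). CDK2 (ENSG00000123374, chr12:55966769-55972784) encodes the kinase that drives entry into S phase, was on no list shown here and was picked after its values were seen, as a called neighbour of DGKA. For CDK2, siScr and dual knockdown libraries of LNCaP held 49.8, 43.7 and 46.3 CPM and 51.5, 54.7 and 55.97 CPM. Those of C4-2 held 23.8, 25.97 and 21.9 CPM and 56.7, 65.002 and 58.7 CPM. Its log2FC was 0.21 (SE 0.08) in LNCaP and 1.33 (SE 0.09) in C4-2, a difference of 1.12 (SE 0.12, adjusted p = 3.95e-06). The groups were apart in both lines. C4-2 went from fewer CDK2 reads than LNCaP to slightly more.

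ID genes, which encode inhibitors of basic helix-loop-helix factors and are classic targets of BMP-SMAD signals, gave the next group. Of 15 members of the ID and BMP-SMAD list tested, 6 passed higher and 2 lower, beside 7.26% and 5.42% of all genes, and without C4-2 dual knockdown replicate 1 these were 9 and 3. ID1 (ENSG00000125968, chr20:31605283-31606515) rose in both lines. LNCaP libraries held ID1 at 8.72, 9.42 and 5.58 CPM with siScr and 15.4, 17.9 and 18.1 CPM after dual knockdown. C4-2 libraries held it at 7.95, 8.55 and 5.52 CPM and 42.6, 31.8 and 37.3 CPM. The log2FC of ID1 was 1.13 (SE 0.17) and 2.34 (SE 0.16), respectively, and the difference was 1.21 (SE 0.23, adjusted p = 0.00156). The groups did not overlap in either line, and the siScr levels of the lines were similar. ID2, a relative of ID1, had a difference of 0.95 (SE 0.18, adjusted p = 0.00123), while the receptor gene BMPR1B went the other way at −0.66 (SE 0.14, adjusted p = 0.00288).

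Metallothioneins bind zinc and copper and respond to metal and oxidative stress. MT2A (ENSG00000125148, chr16:56608199-56609497) was the 1 called member of 13 tested, of which 2 passed higher and 0 lower by adjusted p (7.26% and 5.42% of all genes). With siScr, MT2A stood at 37.2, 34.8 and 31.7 CPM in LNCaP and at 26.6, 27.01 and 24.9 CPM in C4-2. Under dual knockdown it stood at 54.7, 50.8 and 56.3 CPM in LNCaP and at 109, 85.6 and 84.04 CPM in C4-2. This gave log2FC values of 0.64 (SE 0.10) and 1.83 (SE 0.10) and a difference of 1.18 (SE 0.14, adjusted p = 6.83e-06). It rose in both lines without overlap, to a higher level in C4-2. Metallothionein genes are near-identical, so reads may be shared between copies.

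Genes of cholesterol and fatty acid synthesis responded higher in C4-2 for 8 of 28 members and lower for 0 (7.26% and 5.42% of all genes), with a median difference of 0.24. Without the C4-2 library that stood apart, 11 passed higher and 2 lower. HMGCS1 (ENSG00000112972, chr5:43289395-43313512) encodes the synthase that starts the mevalonate pathway. Values of HMGCS1 were 412, 409 and 462 CPM (siScr) and 488, 462 and 439 CPM (dual knockdown) in LNCaP. Their C4-2 counterparts were 113, 153 and 121 CPM and 228, 259 and 282 CPM. With log2FC values of 0.11 (SE 0.09) and 0.99 (SE 0.09), HMGCS1 differed between the lines by 0.88 (SE 0.13, adjusted p = 0.000142). C4-2 groups were apart, and LNCaP libraries overlapped around a level that C4-2 did not reach. STARD4, a carrier of cholesterol between membranes, differed by 0.83 (SE 0.13, adjusted p = 0.000163), ELOVL6, which lengthens fatty acids, by 0.65 (SE 0.12, adjusted p = 0.000741) and SCD, which desaturates them, by 0.46 (SE 0.09, adjusted p = 0.00173). In the endoplasmic reticulum stress list, 8 of 24 passed higher and 1 lower, against the same shares, with a median of 0.21. ASNS, asparagine synthetase, and MANF, a secreted stress protein, were among them at 0.58 (SE 0.10, adjusted p = 0.000654) and 0.54 (SE 0.10, adjusted p = 0.00107).

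Some of the 14 called genes with the smallest adjusted p are described here, named after their values were seen. ELOVL7 (ENSG00000164181, chr5:60751791-60844389) encodes an enzyme that lengthens fatty acids. In LNCaP, ELOVL7 was measured at 190.1, 186 and 188 CPM with siScr and at 167, 162 and 173 CPM under dual knockdown. In C4-2, the values were 118, 109 and 119 CPM and 236, 271 and 274 CPM. Between the lines, the log2FC differed by 1.34 (SE 0.10, adjusted p = 1.54e-08), from −0.17 (SE 0.07) in LNCaP to 1.17 (SE 0.07) in C4-2. Every C4-2 knockdown library was above siScr, and every LNCaP knockdown library was slightly below. SLC16A1 (ENSG00000155380, chr1:112911847-112957013) encodes MCT1, a carrier of lactate and pyruvate across the cell membrane. SLC16A1 gave 264, 304 and 319.9 CPM in the LNCaP siScr libraries and 381, 403 and 398 CPM under dual knockdown. The C4-2 libraries gave 64.5, 67.1 and 63.3 CPM and 217, 217 and 232 CPM. Its log2FC was 0.41 (SE 0.07) in LNCaP and 1.77 (SE 0.07) in C4-2, a difference of 1.36 (SE 0.10, adjusted p = 1.8e-08). The groups were apart and up in both lines, and C4-2 remained under LNCaP. CRYBG1, a protein with crystallin domains, differed by 1.99 (SE 0.16, adjusted p = 5.67e-08), TFPI, an inhibitor of the tissue factor pathway of clotting, by 1.23 (SE 0.10, adjusted p = 8e-08) and LAMP2, a lysosomal membrane protein, by 1.07 (SE 0.10, adjusted p = 5.15e-07). CMTM6, which keeps the checkpoint ligand PD-L1 at the cell surface, differed by 1.21 (SE 0.10, adjusted p = 5.67e-08). All 6 genes in this paragraph were higher, and each stayed called with any 1 library left out.

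RNA of the mitochondrial genome went the other way. Mitochondrial DNA encodes 2 ribosomal RNAs and 13 proteins of the respiratory chain. MT-RNR1 (ENSG00000211459, chrMT:648-1601), the 12S ribosomal RNA, was also among those 14 genes. For MT-RNR1, siScr and dual knockdown libraries of LNCaP held 2132, 2102 and 2046 CPM and 2042, 2133 and 2456 CPM. Those of C4-2 held 7492, 7403 and 7100.4 CPM and 3109, 3427 and 3203 CPM. The log2FC of MT-RNR1 was 0.08 (SE 0.07) and −1.18 (SE 0.07), respectively, and the difference was −1.25 (SE 0.09, adjusted p = 1.8e-08). It fell in C4-2 without overlap, toward the level of LNCaP, where the groups overlapped. MT-RNR2, the 16S ribosomal RNA, differed by −0.33 (SE 0.07, adjusted p = 0.0058). Of the 13 protein genes, all had a negative difference (−0.58 to −0.20, median −0.41). By adjusted p, 9 passed lower and 0 higher, beside 5.42% and 7.26% of all genes. Within the lines, 12 passed downward in C4-2, beside 13.3% of all genes, and 0 in LNCaP, beside 3.47%. Among the 13, the largest difference was that of MT-ND6, a subunit of complex I, at −0.58 (SE 0.13, adjusted p = 0.00481). Without replicate 1 of the C4-2 dual knockdown, 11 passed lower. Mitochondrial genes took 8.71% to 8.87% of counts in C4-2 siScr libraries and 6.39% to 6.82% under dual knockdown, against 6.32% to 6.78% and 6.11% to 6.43% in LNCaP. How far RNA selection or RNA quality in single libraries moved these shares was not tested.

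Androgen-regulated genes were read as 2 lists, those that androgen represses and those that it induces, and a difference between the lists was not tested. Of 17 androgen-repressed genes tested, 8 passed higher and 1 lower (7.26% and 5.42% of all genes), with a median difference of 0.36. The 8 include ID1, which is also on the ID and BMP-SMAD list, and the related genes UGT2B10, UGT2B15 and UGT2B17. They are therefore not all separate observations. Of 30 androgen-induced genes, 6 passed higher and 2 lower, with a median of 0.05, and the lower count is near the share of all genes. UGT2B17 and UGT2B15 encode enzymes that attach glucuronic acid to androgens and so inactivate them. LNCaP libraries held UGT2B17 at 293, 351 and 314 CPM with siScr and 354, 357 and 349.98 CPM after dual knockdown. C4-2 libraries held it at 9.39, 7.297 and 6.35 CPM and 13.7, 16.8 and 17.3 CPM. This gave log2FC values of 0.15 (SE 0.09) and 1.05 (SE 0.12) and a difference of 0.90 (SE 0.15, adjusted p = 0.000467). It rose in C4-2 without overlap, and the C4-2 level stayed far under that of LNCaP. UGT2B15 differed by 0.88 (SE 0.12, adjusted p = 6.14e-05), although the pair are near-identical in sequence and reads may be shared. DDC, which makes dopamine and serotonin from their precursors, differed by 0.83 (SE 0.12, adjusted p = 9.2e-05), with log2FC values of −0.35 in LNCaP and 0.48 in C4-2. KLK3 (ENSG00000142515, chr19:50854915-50860764), the gene of prostate-specific antigen, went the other way. With siScr, KLK3 stood at 4274, 4230.2 and 4558 CPM in LNCaP and at 384, 366 and 404 CPM in C4-2. Under dual knockdown it stood at 5606, 5314 and 4779.5 CPM in LNCaP and at 375, 287 and 291 CPM in C4-2. With log2FC values of 0.27 (SE 0.08) and −0.27 (SE 0.08), KLK3 differed between the lines by −0.54 (SE 0.12, adjusted p = 0.00429). In LNCaP all knockdown libraries were above siScr, and in C4-2 the groups overlapped. For TMPRSS2, a membrane protease, the difference was 0.12 (SE 0.10, adjusted p = 0.456), which did not pass. FOXA1, a pioneer factor that opens chromatin, differed by 0.33 (SE 0.09, adjusted p = 0.0194) and did not pass without LNCaP siScr replicate 1, LNCaP dual knockdown replicate 1 or C4-2 siScr replicate 3 (adjusted p up to 0.0615).

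Genes activated by p53 were more often lower than higher in C4-2. Of 23 tested, 6 passed lower and 1 higher, with a median difference of −0.10, beside 5.42% and 7.26% of all genes, and without C4-2 dual knockdown replicate 1 these were 9 and 2. Within the lines, 9 passed downward and 2 upward in C4-2 (13.3% and 15.4% of all genes), and 6 downward and 1 upward in LNCaP (3.47% and 5.73%). PHLDA3 (ENSG00000174307, chr1:201464383-201469237) encodes a p53-induced blocker of AKT signalling. Values of PHLDA3 were 28.6, 17.997 and 23.3 CPM (siScr) and 33.8, 30.3 and 30.1 CPM (dual knockdown) in LNCaP. Their C4-2 counterparts were 9.81, 10.2 and 7.298 CPM and 6.46, 4.19 and 5.36 CPM. Between the lines, the log2FC differed by −1.20 (SE 0.23, adjusted p = 0.0015), from 0.42 (SE 0.14) in LNCaP to −0.77 (SE 0.18) in C4-2. It went down in C4-2 without overlap and was higher in every LNCaP knockdown library. BTG2, an antiproliferative protein, differed by −0.95 (SE 0.14, adjusted p = 7.43e-05) and GDF15, a secreted stress cytokine, by −0.94 (SE 0.19, adjusted p = 0.00253), with GDF15 log2FC values of 0.47 in LNCaP and −0.47 in C4-2. Their positive LNCaP values were unlike the 6 members that passed downward there. CCNG1, a cyclin induced by p53, was the member that passed higher, at 0.50 (SE 0.11, adjusted p = 0.0045). Hypoxia and glycolysis genes gave 6 lower and 1 higher of 29 (5.42% and 7.26% of all genes), with a median of −0.28, and 14 lower without that C4-2 library. VEGFA, the angiogenic growth factor, differed by −0.73 (SE 0.14, adjusted p = 0.00116). Oxidative phosphorylation genes had a median of −0.26, but 1 of 32 passed lower and 0 higher. Without that C4-2 library 17 passed lower, in a fit where the genes called lower among all genes rose from 154 to 293. Histone genes gave 5 lower and 1 higher of 22, against the same shares.

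Insulin and growth factor signalling held the 2 insulin receptor substrates, both lower in C4-2. In the list of the insulin-like growth factor axis, 4 of 13 passed higher and 3 lower (7.26% and 5.42% of all genes). IRS2 (ENSG00000185950, chr13:109752698-109786568) encodes a docking protein that passes the signal of insulin and IGF1 receptors to PI3K. In LNCaP, IRS2 was measured at 8.24, 6.63 and 6.96 CPM with siScr and at 7.11, 6.76 and 7.88 CPM under dual knockdown. In C4-2, the values were 15.7, 13.6 and 13.4 CPM and 6.72, 5.31 and 5.79 CPM. Its log2FC was −0.01 (SE 0.14) in LNCaP and −1.26 (SE 0.13) in C4-2, a difference of −1.25 (SE 0.19, adjusted p = 0.000175). C4-2 was above LNCaP with siScr and near it after knockdown, and LNCaP libraries overlapped. IRS1 (ENSG00000169047, chr2:226731317-226799759) encodes the related adaptor. IRS1 gave 8.66, 7.46 and 7.29 CPM in the LNCaP siScr libraries and 6.31, 8.41 and 8.4004 CPM under dual knockdown. The C4-2 libraries gave 32.96, 29.9 and 34.6 CPM and 17.1, 13.9 and 12.7 CPM. The log2FC of IRS1 was −0.01 (SE 0.14) and −1.15 (SE 0.12), respectively, and the difference was −1.14 (SE 0.19, adjusted p = 0.000367). It too fell in C4-2 without overlap and overlapped in LNCaP. The receptor gene IGF1R had a difference of −0.39 (SE 0.10, adjusted p = 0.0128). On the higher side, IGF2BP2, which binds the IGF2 transcript, was called at 2.01 (SE 0.48, adjusted p = 0.00816). IGFBP3, a binding protein of the growth factors, was called at 1.05 (SE 0.31, adjusted p = 0.0281) and lost the call in 6 of 12 fits with a library left out, with an adjusted p up to 0.0976 (without C4-2 dual knockdown replicate 3). Eph receptors, which read ephrins on neighbouring cells, passed lower in 3 of 18 and higher in 0 (5.42% and 7.26% of all genes). EPHA7 (ENSG00000135333, chr6:93240020-93419547) encodes one of these receptors. For EPHA7, siScr and dual knockdown libraries of LNCaP held 237, 254 and 241 CPM and 178, 179.7 and 188 CPM. Those of C4-2 held 54.1, 50.3 and 53.05 CPM and 16.2, 17.5 and 17.4 CPM. This gave log2FC values of −0.42 (SE 0.06) and −1.62 (SE 0.07) and a difference of −1.20 (SE 0.10, adjusted p = 5.67e-08). All groups were apart within each line, and both lines went down. SYT4, a vesicle protein of neurons, was called lower at −1.12 (SE 0.19, adjusted p = 0.000511). Its neuroendocrine and neuronal list had no single direction, with 1 of 12 tested passing higher and 2 lower (7.26% and 5.42% of all genes). In that list 7 of the 12 had a positive difference. The mesenchymal list had 3 of 15 passing higher and 1 lower, beside the same shares, and its repressors of epithelial genes went both ways. SNAI2 was called lower at −1.14 (SE 0.17, adjusted p = 0.000156) and ZEB1 higher at 2.73 (SE 0.67, adjusted p = 0.00979), with ZEB1 at no more than 1.12 CPM in any library.

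**Figure D3:**
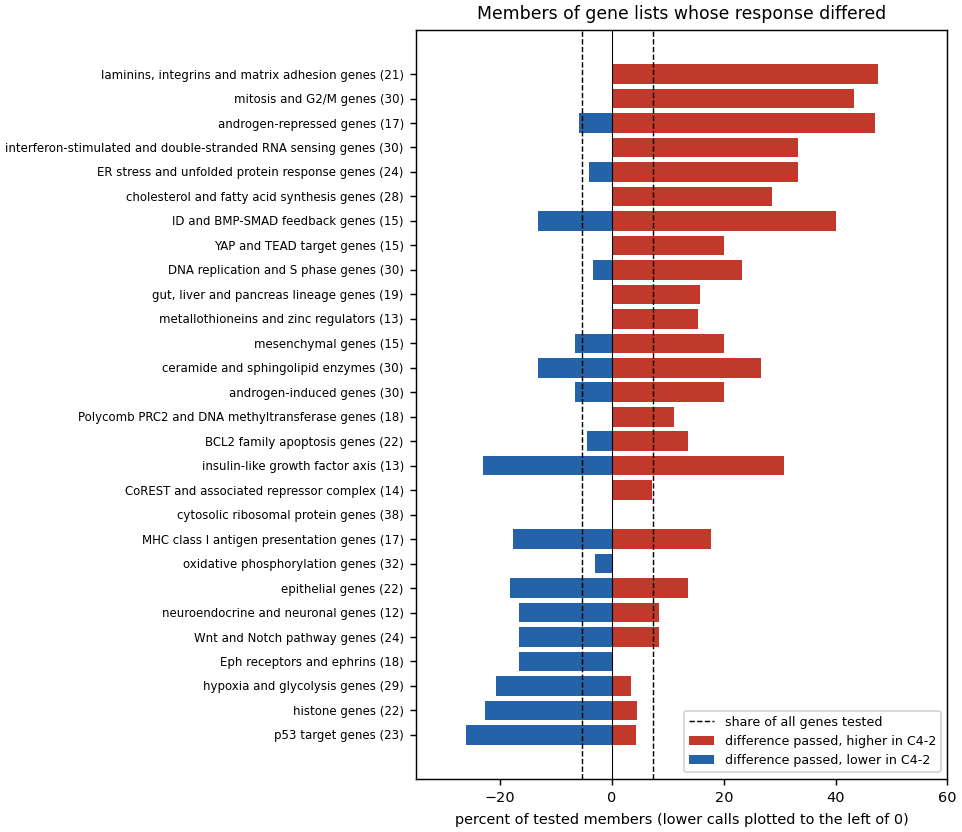
For gene lists with at least 12 members tested, 1 of them not shown, bars give the percent of tested members whose response differed by adjusted p, to the right when higher in C4-2 and to the left when lower, with the number tested in parentheses. Dashed lines mark the shares of all genes tested, 7.26% and 5.42%; adhesion, androgen-repressed, mitosis and ID lists reach farthest to the right, and p53, insulin-like growth factor, histone and hypoxia lists farthest to the left.

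The ceramide and sphingolipid list was mixed, with 8 of 30 passing higher and 4 lower (7.26% and 5.42% of all genes), and it held a gene that moved in opposite directions in the lines. CERK (ENSG00000100422, chr22:46684411-46738261) encodes ceramide kinase, which phosphorylates ceramide. LNCaP libraries held CERK at 3.17, 2.44 and 1.82 CPM with siScr and 1.42, 0.825 and 1.13 CPM after dual knockdown. C4-2 libraries held it at 4.11, 4.79 and 3.98 CPM and 10.3, 8.33 and 9.32 CPM. With log2FC values of −1.15 (SE 0.25) and 1.12 (SE 0.17), CERK differed between the lines by 2.27 (SE 0.31, adjusted p = 4.39e-05). It fell in LNCaP and rose in C4-2 with no overlap in either line. DEGS1, the desaturase that makes ceramide, differed by 0.78 (SE 0.09, adjusted p = 1.23e-05), whereas the ceramide synthase gene CERS4 and the sphingomyelinase gene SMPD1 differed by −0.89 (SE 0.16, adjusted p = 0.000976) and −0.68 (SE 0.12, adjusted p = 0.000508).

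Among the 404 called genes, 13 passed by adjusted p in both lines with opposite signs, 6 of them higher and 7 lower in C4-2. With each of the 12 libraries left out in turn, all 13 kept opposite signs, but only RIMS1 passed in both lines every time. RIMS1 (ENSG00000079841, chr6:71886703-72403143) encodes a scaffold of the zone where synaptic vesicles are released. With siScr, RIMS1 stood at 53.5, 61.7 and 51.7 CPM in LNCaP and at 18.3, 20.9 and 20.6 CPM in C4-2. Under dual knockdown it stood at 34.4, 37.2 and 33.7 CPM in LNCaP and at 31.9, 29.02 and 32.2 CPM in C4-2. Between the lines, the log2FC differed by 1.30 (SE 0.13, adjusted p = 1.23e-06), from −0.66 (SE 0.09) in LNCaP to 0.64 (SE 0.09) in C4-2. The 2 lines, far apart with siScr, ended within a few CPM of each other. AHNAK (ENSG00000124942, chr11:62433542-62556235) encodes a very large scaffold protein under the cell membrane. Values of AHNAK were 1080.4, 996 and 1058 CPM (siScr) and 775, 855 and 847 CPM (dual knockdown) in LNCaP. Their C4-2 counterparts were 135, 161 and 159 CPM and 326, 385 and 402 CPM. Its log2FC was −0.34 (SE 0.08) in LNCaP and 1.29 (SE 0.08) in C4-2, a difference of 1.63 (SE 0.11, adjusted p = 1.13e-08). The fall in LNCaP and the rise in C4-2 were both without overlap, and the LNCaP fall lost its adjusted p in 4 of the 12 fits with a library left out (up to 0.0844). DUSP5, a phosphatase that switches off ERK, and SLC22A3, a transporter of organic cations, also fell in LNCaP and rose in C4-2. In LNCaP, DUSP5 was measured at 7.87, 5.58 and 5.52 CPM with siScr and at 4.02, 4.02 and 3.401 CPM under dual knockdown. In C4-2, the values were 0.427, 0.272 and 0.475 CPM and 1.08, 1.38 and 2.13 CPM. The log2FC of DUSP5 was −0.74 (SE 0.20) and 1.93 (SE 0.36), respectively, and the difference was 2.67 (SE 0.41, adjusted p = 0.000195). LNCaP libraries held more DUSP5 than C4-2 libraries in both conditions, with a smaller gap under dual knockdown than with siScr. SLC22A3 gave 1.95, 1.67 and 1.93 CPM in the LNCaP siScr libraries and 0.866, 0.774 and 1.13 CPM under dual knockdown. The C4-2 libraries gave 8.96, 8.88 and 11.1 CPM and 17.3, 19.1 and 16.9 CPM. The order of the lines was the reverse for SLC22A3, and neither gene had overlapping groups. DUSP5 passed in both lines in 6 of 12 fits with a library left out and SLC22A3 in 8 of 12. CLEC11A, a growth factor of blood and bone precursors, and FNDC10, a membrane protein with a fibronectin type III domain, rose in LNCaP and fell in C4-2, with differences of −1.60 (SE 0.25, adjusted p = 0.00019) and −1.15 (SE 0.19, adjusted p = 0.000352). PDE4D, which breaks down cyclic AMP, had log2FC values of −0.77 in LNCaP and 0.46 in C4-2. Among genes with a larger log2FC in LNCaP were DZIP1, a protein of cilia, with log2FC values of −1.48 in LNCaP and 0.33 in C4-2, and SLITRK5, a neuronal membrane protein, with −1.19 in LNCaP and 0.48 in C4-2.

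**Figure D4:**
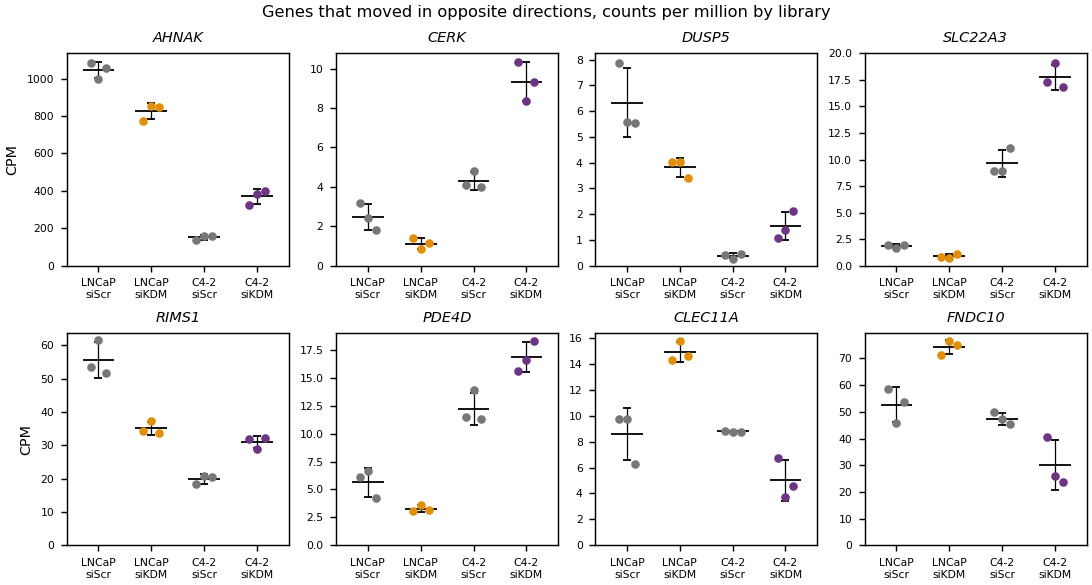
CPM in each of the 12 libraries is shown for 8 genes whose dual knockdown response had opposite signs in the lines, with points for libraries and bars for the mean and SD of 3. AHNAK, CERK, DUSP5, SLC22A3, RIMS1 and PDE4D went down in LNCaP and up in C4-2, and CLEC11A and FNDC10 went the other way.

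The largest differences came from genes near the detection limit in a group. For NR2F1-AS1, 8 counts over the LNCaP siScr libraries became 0, at least 2.85-fold lower against a floor of 3 counts over the group, and HGF, the hepatocyte growth factor gene, went from 4 counts to 0 there. In C4-2, HGF was well above the floor, at 15.4, 17.8 and 15.8 CPM with siScr and 30.7, 37.1 and 40.8 CPM under dual knockdown. Its log2FC there was 1.15 (SE 0.11), without overlap. FGL1, a liver-secreted protein, had 1 count over the C4-2 siScr libraries and 129 under dual knockdown, a ratio of 127 (95% exact interval 22.4 to 5060, counting error only). The calls of these genes were lost with some library left out, NR2F1-AS1 without LNCaP siScr replicate 2 (adjusted p = 0.0545), FGL1 without LNCaP siScr replicate 3 (adjusted p = 0.289) and HGF in 8 of 12 fits. Among the 10 largest on each side, genes that kept the call with any 1 library left out included the following. CRACR2A encodes a calcium sensor that helps open store-operated calcium channels. For CRACR2A, siScr and dual knockdown libraries of LNCaP held 0.528, 0.837 and 0.662 CPM and 0.495, 0.361 and 0.825 CPM. Those of C4-2 held 1.44, 1.14 and 1.66 CPM and 10.9, 7.59 and 9.68 CPM. This gave log2FC values of −0.23 (SE 0.39) and 2.73 (SE 0.22) and a difference of 2.96 (SE 0.46, adjusted p = 0.000195). The rise occurred in C4-2, with LNCaP libraries at or under 0.84 CPM. MMP7, a matrix-degrading protease, was at 0, 0.109 and 0.119 CPM in C4-2 siScr libraries and 1.28, 1.22 and 1.28 CPM after knockdown. The C4-2 siScr values rest on 4 counts over the group. In LNCaP, MMP7 was at 1.27, 2.09 and 0.94 CPM with siScr and at 2.84, 2.27 and 2.32 CPM under dual knockdown. These LNCaP groups did not overlap, but the log2FC of 0.81 (SE 0.29) did not pass (adjusted p = 0.0815). The log2FC of MMP7 differed between the lines by 3.15 (SE 0.67, adjusted p = 0.00356). On the negative side, SLC26A3 (ENSG00000091138, chr7:107765467-107803225) encodes a chloride and bicarbonate exchanger of the gut. LNCaP libraries held SLC26A3 at 2.01, 1.95 and 1.99 CPM with siScr and 2.54, 2.53 and 2.27 CPM after dual knockdown. C4-2 libraries held it at 23.7, 17.5 and 22.1 CPM and 5.95, 6.102 and 5.18 CPM. With log2FC values of 0.30 (SE 0.20) and −1.87 (SE 0.13), SLC26A3 differed between the lines by −2.17 (SE 0.24, adjusted p = 4.46e-06). It fell in C4-2, and every LNCaP knockdown library lay slightly above siScr. CYP4F8, an oxidase of fatty acids known from seminal vesicles, gave 4.85, 4.57 and 4.69 CPM with siScr and 0.718, 0.584 and 0.67 CPM under knockdown in C4-2, where the libraries did not overlap, and a difference of −2.78 (SE 0.45, adjusted p = 0.000294).

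In all, called genes formed 20 runs of neighbours no more than 100 kb apart that moved the same way, the BTN3A, HLA-DM and IFIT runs included. How many runs 404 genes would form by their positions alone was not tested. Some runs pair a gene with its antisense gene, such as NR2F1 and HTR5A, and unstranded reads do not separate these where they overlap. PRUNE2 contains PCA3, a noncoding RNA used as a prostate cancer marker, in antisense orientation at chr9:76764436-76787569. With siScr, PRUNE2 stood at 569, 592 and 592 CPM in LNCaP and at 672, 781 and 735 CPM in C4-2. Under dual knockdown it stood at 519, 592 and 568 CPM in LNCaP and at 1413, 1728 and 1819 CPM in C4-2. Between the lines, the log2FC differed by 1.24 (SE 0.11, adjusted p = 3.91e-07), from −0.06 (SE 0.08) in LNCaP to 1.18 (SE 0.08) in C4-2. PCA3 differed by 1.75 (SE 0.26, adjusted p = 0.000103), and since strand was not used, its reads cannot be told apart from those of unspliced PRUNE2. ORM1 and ORM2, near-identical genes of an acute-phase plasma protein, were both lower, at −1.19 (SE 0.26, adjusted p = 0.0045) and −1.67 (SE 0.25, adjusted p = 0.000136), with their reads possibly shared. By chromosome, the share called ran from 1.18% on chromosome 17 to 3.93% on chromosome 6, which holds the BTN3A and HLA-DM genes.

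For the deeper knockdown in C4-2, a second quantity was computed, the C4-2 log2FC minus 2.95 times the LNCaP log2FC. Here 2.95 is the ratio of the KDM1A log2FC values, and that of KDM7A was 2.68. The quantity asks which genes depart from a response in proportion to KDM1A, and proportion is an assumption. The ratio was estimated from these libraries but taken as known, so its error is not in the adjusted p values. With the second quantity, 115 genes were called higher (0.654%) and 198 lower (1.13%). This count rested on single libraries, with 18 to 1616 genes when 1 was left out. It was 18 without LNCaP dual knockdown replicate 1 or 2, 19 and 31 without LNCaP siScr replicate 2 or 3, 738 without LNCaP siScr replicate 1 and 1616 without C4-2 dual knockdown replicate 1. Compared with the unscaled difference, the scaled value is by construction larger in size for a gene with opposite signs in the lines and shifted against the direction of change for one with the same sign. BTN3A2 had 1.505 (adjusted p = 0.0254), SAMD9 2.38 (adjusted p = 0.0266), ITGA1 2.55 (adjusted p = 0.0359) and AHNAK 2.29 (adjusted p = 4.58e-05). AHNAK stayed called in all 12 fits with a library left out, BTN3A2 in 7 (adjusted p up to 0.137, without LNCaP siScr replicate 3), and SAMD9 in 6 and ITGA1 in 4 (up to 0.144 and 0.173, both without LNCaP siScr replicate 2). EPHA7 and ID1, which moved in the same direction in both lines, had −0.38 (adjusted p = 0.28) and −0.99 (adjusted p = 0.269).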

How the data were processed

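RNA-seq counts of 12 libraries of LNCaP and C4-2 cells were analysed, 3 in each of 4 groups taken from the sample titles. Per the file headers and the methods of the study, the authors trimmed read pairs with Trim Galore, aligned them with STAR to GRCh38 and deposited whole-number counts of pairs per Ensembl gene from featureCounts 1.5.0-p1, without strand or normalisation. Versions of the other tools are not given in the sources used here.

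From the deposited counts, edgeR 4.0.16 (R 4.3.3) computed TMM factors, filterByExpr (minimum count 10, total 15) and 2-sided quasi-likelihood F-tests with Benjamini-Hochberg adjustment, in 1 fit of 4 group means. Thresholds were an adjusted p of 0.05 and a log2 difference of 1. DESeq2 1.42.0 served as an alternative. The pipeline was tested on simulated data. Figures and counts used Python 3.11.15. Gene symbols came from a table of gene IDs and from GENCODE 29, gene types from GENCODE 29 and promoters from RefSeq. Depth of 14350626 to 19732350 counts set the precision. Intervals and floors (3 counts over a group) cover counting error only.

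Named genes were the 2 targets, genes of androgen signalling, the 10 largest differences each way with a mean of at least 1 CPM and libraries not overlapping, up to 10 of opposite sign, up to 10 larger in LNCaP, the called members of the gene lists with up to 4 more by adjusted p, and the 5 largest scaled differences each way. Some are not reported here, and those not described are in the counts. The members and the 35 lists were chosen with earlier results of these data known. Alternatives were other factors, filters, tests, libraries, GC correction and replicate blocks. The lists without C4-2 dual knockdown replicate 1 were added after seeing the data. The labels do not say that replicates were separate cultures, so p-values measure the spread between these samples, which may be technical. Same-numbered libraries did not deviate together (correlations of −0.065 to 0.061), so numbers were not taken as pairs. The siScr vehicle libraries entered 1 alternative only.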

Additional observations from a re-analysis of the deposited data

Results flagged for a closer look

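A difference between the lines under the same contrast was tested by the interaction in edgeR for every gene, and 404 genes were called. For KDM1A the difference was −2.06 and for KDM7A −1.57, both larger falls in C4-2. Some called genes passed by adjusted p in both lines with opposite signs. Their positive differences were 2.67 for DUSP5, 2.27 for CERK, 1.89 for SLC22A3, 1.63 for AHNAK, 1.30 for RIMS1 and 1.23 for PDE4D. Negative differences were −1.60 for CLEC11A, −1.51 for AL139246.5, −1.46 for TRABD-AS1 and −1.15 for FNDC10. AL139246.5 and TRABD-AS1 are noncoding, and unstranded reads do not separate TRABD-AS1 from the gene it overlaps. Single outlying values per gene were not looked for, since each group held 3 libraries.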

How the results depend on the processing

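The number of genes whose response differed was 404, and other scale factors, no filter, a mean of at least 1 CPM, DESeq2, a likelihood ratio test, all 18 libraries and GC correction gave 347 to 539. At least 10 counts in every library left 261, testing against a 2-fold difference (glmTreat) left 9, and adjusted p alone gave 2231. Leaving out 1 library gave 318 (without C4-2 dual knockdown replicate 2) to 627 (without replicate 1 of that group). In LNCaP, 54 genes became 18 with at least 10 counts, 30 with a mean of at least 1 CPM, 14 by DESeq2, 116 by the likelihood ratio test, 0 by glmTreat (1619 by adjusted p alone) and 24 with GC correction, of which 9 were up and 15 down, against 29 and 25. Leaving out 1 library gave 5 (LNCaP siScr replicate 2) to 91 (C4-2 dual knockdown replicate 1), with 6 and 7 without LNCaP dual knockdown replicates 1 and 2, and 30 without LNCaP siScr replicate 3. In C4-2, 780 became 335, 503 and 76 with the count filter, the CPM filter and glmTreat, 5065 by adjusted p alone, and 674 to 814 with 1 library left out. The depth-scaled count of 313 became 970 without a filter, 596 by DESeq2, 856 by the likelihood ratio test, 2 by glmTreat, 120 with 18 libraries, 107 with GC correction (61 higher and 46 lower, against 115 and 198) and 18 to 1616 with 1 library left out. The fewer genes tested account for part of the filter results, and otherwise the cause was not tested.

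With the replicate number as a block, within each line or shared by both, the interaction count was 397 and 435, the depth-scaled count 769 and 965, and the LNCaP count with GC correction and the block 29. The numbers did not pair the samples, and the block was not used elsewhere. List members that passed by adjusted p numbered 168 and, in the fit without C4-2 dual knockdown replicate 1 added after seeing the data, 284. The KDM7A difference was −1.57 under glmTreat, not past the threshold (adjusted p = 0.0642), and −1.67 to −1.46 with 1 library left out, and that of KDM1A was −2.22 to −1.98. Of 3686 refits of named genes, 3503 stayed on the same side of the threshold, 150 lost and 33 gained it, and 0 changed sign past it. Low counts limit genes under 1 CPM, where a few reads decide the value.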
